A study of Mus musculus with 2 samples.

Results

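Fat cells draw fatty acids from the blood in a series of steps shared between the capillary wall and the adipocyte, and 10 genes of this route were followed across the cell types of young visceral fat: Lpl, Gpihbp1, Angptl4, Cd36, Vldlr, Slc27a1, Slc27a4, Fabp4, Fabp5 and Acsl1. They were chosen by gene symbol, as 10 of the 56980 genes in the count matrices, and all 10 were among the 14331 genes tested between cell types. The tissue was visceral (gonadal) adipose tissue of 2 female C57BL/6J mice aged 2 months, with no genetic change or treatment named, and 1 library of nuclei was made per mouse (replicate 1 and replicate 2). The protocol describes nuclei of whole tissue captured with the Singleron GEXSCOPE kit, whereas the sample labels name 10x Genomics and adipocytes. Each RNA molecule carried a unique molecular identifier (UMI), and a level is given as UMIs of the gene per 1000000 UMIs summed over the nuclei of a cell type in a library (CPM). Levels are of RNA in nuclei, and the comparisons are between cell types of the same 2 mice.

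Triglyceride-rich lipoproteins are too large to leave the capillary, so lipoprotein lipase (LPL) releases their fatty acids at the vessel wall. The enzyme is made by parenchymal cells such as adipocytes, and GPIHBP1 of endothelial cells carries it to the lumen and holds it there, while ANGPTL4 inactivates it. The fatty acids then pass the endothelium and enter the adipocyte with the help of CD36 and the transport proteins encoded by Slc27a1 and Slc27a4, travel on the binding proteins FABP4 and FABP5, and are trapped as acyl-CoA by ACSL1. VLDLR, the very low density lipoprotein receptor, binds the lipoprotein particles themselves.

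RefSeq start sites (GRCm38.p6, placed in GRCm39 by exact match) were at hand for 5 of the 10 genes, Cd36, Slc27a1, Slc27a4, Acsl1 and Vldlr. The sequence before a start is shown for 3 of these, because their levels took 3 different patterns across the cell types. Cd36 was highest in endothelial cells, followed by adipocytes and immune cells. Acsl1 was highest in adipocytes and Vldlr in fibro-adipogenic progenitors (FAPs). Each run begins 250 bases before the first listed start and stops at the first base of an annotated exon of the gene, so that no untranslated region is printed. The Cd36 run of 69 bases lies at chr5:18041076-18041144 on the minus strand, the Acsl1 run of 239 bases at chr8:46923824-46924062 and the Vldlr run of 228 bases at chr19:27193634-27193861, both on the plus strand, in GRCm39. Capitals mark matches on either strand to AGGTCA (a nuclear receptor half-site), GGGCGG (the box of SP and KLF factors), CCAAT and TATAAA, which do not overlap here.
Cd36: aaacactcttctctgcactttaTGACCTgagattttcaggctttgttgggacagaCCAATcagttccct
Acsl1: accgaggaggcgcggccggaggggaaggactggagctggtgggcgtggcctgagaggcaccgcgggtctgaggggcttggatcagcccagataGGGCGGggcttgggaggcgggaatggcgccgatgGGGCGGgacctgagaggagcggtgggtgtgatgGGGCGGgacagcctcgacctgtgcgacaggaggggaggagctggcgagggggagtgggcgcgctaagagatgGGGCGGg
Vldlr: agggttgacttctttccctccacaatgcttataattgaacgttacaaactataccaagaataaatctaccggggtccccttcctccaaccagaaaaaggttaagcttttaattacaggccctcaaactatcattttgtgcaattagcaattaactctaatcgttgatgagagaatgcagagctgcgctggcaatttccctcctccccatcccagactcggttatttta

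The Cd36 run held 1 half-site that begins 228 bases before the start and 1 CCAAT that begins 195 bases before it, and 3.94% and 9.50% of the 32851 RefSeq promoters held these letters in the same stretch. The Acsl1 run held 4 GGGCGG boxes, beginning 157, 123, 90 and 18 bases before the start, and 31.2% of promoters held at least 1 in that stretch. The Vldlr run held none of the 4 motifs, which 11.6% to 31.9% of promoters held in that stretch. G and C made up 43.5% of the Cd36 run, 72.0% of the Acsl1 run and 41.7% of the Vldlr run. Bases that are not printed held further matches. In the Cd36 bases left out, 2 GGGCGG boxes began 109 and 93 bases before the start. Another listed Vldlr start, with 66.4% G and C before it, had 1 match to GGGCGG and 1 to CCAAT, beginning 42 and 78 bases before it. Another Acsl1 start had 2 matches to CCAAT. These are matches of letters and were not tested as binding sites.

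After filtering, 2833 nuclei with 8466237 UMIs were left in replicate 1 and 12225 nuclei with 48068273 UMIs in replicate 2, and 27 barcodes occurred in both. The libraries differed in quality, with a median mitochondrial share of 6.2% in replicate 1 and 0.621% in replicate 2. Nuclei were clustered with the 10 genes left out of the features, and the clusters were named from markers. Adipocytes were 1745 and 5533 nuclei, endothelial cells 65 and 388, FAPs 252 and 1408, immune cells 248 and 1080, mesothelial cells 499 and 3663, and smooth muscle cells 24 and 130. All markers of adipocytes, endothelial, mesothelial and smooth muscle cells were highest in their own type in both libraries, while Col3a1 and Dpp4 of the FAP list and Skap1 of the immune list were not. A further 23 nuclei of replicate 2 were lymphatic endothelial-like and were not tested.

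Genes of adipocytes were detected in every other cell type. A list of 13 adipocyte genes (Adipoq, Plin1, Plin4, Cidec, Adrb3, Acvr1c, Tshr, Pck1, Adig, Lep, Retn, Car3 and Cfd) stood in endothelial nuclei at a median of 36.7% of its adipocyte level in replicate 1, with a range from 20.4% (Tshr) to 56.9% (Cfd). In replicate 2 the median was 34.1%, with a range from 22.8% (Pck1) to 80.8% (Cfd). None of the 13 genes was at 0 there, and their summed level was 7080 CPM in endothelial nuclei against 16844 in adipocytes in replicate 1, and 4742 against 11936 in replicate 2. In FAPs, immune, mesothelial and smooth muscle cells the median lay between 17.3% and 46.7%. Of all UMIs, 60.9% and 45.7% lay outside the called barcodes. Their part in a member's level was not tested beyond the alternatives named below.

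In the comparison of endothelial cells and adipocytes, 6 of 10 members differed. In the quasi-likelihood test of edgeR, with p-values adjusted over all genes, Gpihbp1 was higher in endothelial cells, and Lpl, Acsl1, Slc27a1, Vldlr and Angptl4 were higher in adipocytes. Thus 1 of 10 members was called higher and 5 of 10 were called lower in endothelial cells, where 19.5% and 15.7% of all 14331 genes were. Cd36, Fabp4, Fabp5 and Slc27a4 did not pass the test, and Vldlr and Angptl4 lost their calls with DESeq2, without the library block and without integration of the libraries. Of all 5038 genes called, 55.5% were higher in endothelial cells. This share ranged over the alternatives from 36.0% of 5444 without a filter on low counts to 67.8% of 4402 with the size factors of DESeq2, and was also below 50% at a mitochondrial limit of 5% (47.9%), without high doublet scores (48.0%), after subtraction of the adipocyte profile (46.6%) and without the subclusters with adipocyte markers (47.1%). The median log2 fold change (endothelial minus adipocyte) was -0.94 over the members and 0.06 over all genes.

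**Figure D1:**
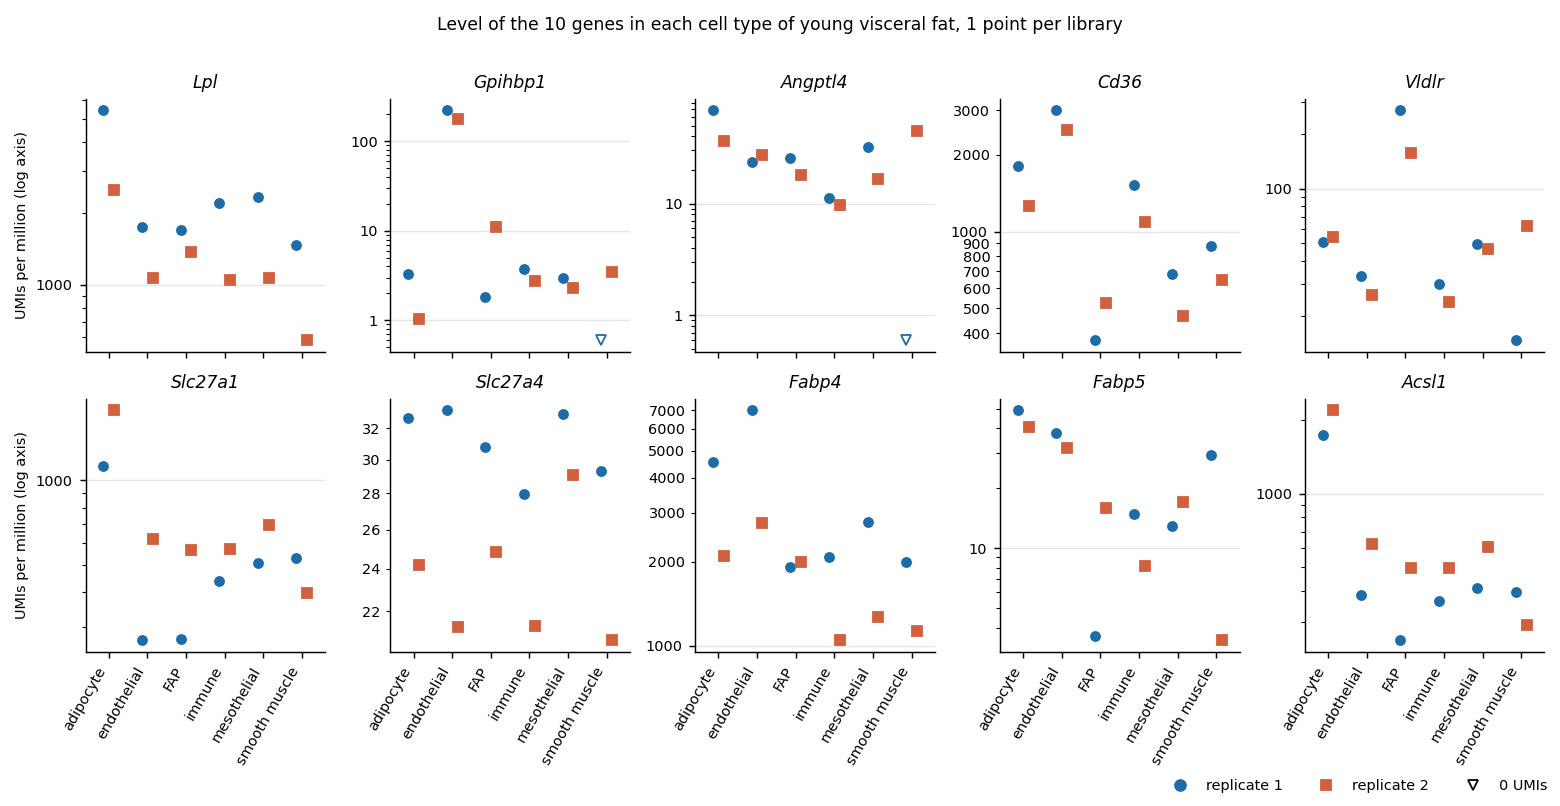
Level of each of the 10 genes, in CPM on a log axis whose range differs between panels, in the 6 cell types, with 1 point per library and an open triangle for 0 UMIs. Gpihbp1 stands apart in endothelial cells, Vldlr in FAPs, and Lpl, Slc27a1 and Acsl1 are highest in adipocytes in both libraries, while Cd36 and Fabp4 are highest in endothelial cells.

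Gpihbp1 (chr15:75468474-75471331, plus strand, GRCm39, as for the positions that follow) encodes the endothelial protein that binds and carries LPL. Its level in endothelial cells was 223 CPM in replicate 1 and 178 in replicate 2, against 3.28 and 1.04 in adipocytes. The other types ranged from 0 to 11.0, so that endothelial cells did not overlap with any of them in either library. The log2 fold change against adipocytes was 6.47 ± 0.44 (SE, adjusted p = 1.13e-18), with 5.70 in replicate 1 alone and 7.04 in replicate 2 alone, and against the next type in order, FAPs, endothelial cells were also higher (adjusted p = 4.3e-12). In the test over both libraries FAPs were called higher than adipocytes (log2 fold change 2.15 ± 0.49, SE, adjusted p = 0.000324) and than mesothelial cells (1.89 ± 0.55, adjusted p = 0.00912), but the libraries went opposite ways. In replicate 1 FAPs were at 1.81 CPM, below adipocytes (3.28) and mesothelial cells (2.99), and in replicate 2 they were at 11.0, above both (1.04 and 2.28). No difference between neighbours in order among the 5 other types passed (adjusted p from 0.0726 to 0.913). The FAP value of replicate 1 came from 1 UMI and that of replicate 2 from 42, of which 34 lay in a subcluster of FAP nuclei that also held adipocyte and endothelial markers. With each nucleus thinned to 1000 UMIs, 29.2% of endothelial nuclei in replicate 1 (exact 95% interval 18.6 to 41.8%) and 16.8% in replicate 2 (13.2 to 20.8%) held a Gpihbp1 UMI. In adipocytes, which should lack the gene, the shares were 0.344% and 0.181%, and the median depths before thinning were 2030 and 1651.5 UMIs in endothelial nuclei and 2777 and 5389 in adipocytes. In smooth muscle cells of replicate 1 no UMI was seen in 24 thinned nuclei, which by the exact interval allows up to 14.2% of nuclei to hold a UMI at this depth and sets no limit on nuclei that express the gene.

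Lpl (chr8:69284603-69360100, plus strand) encodes the lipase itself. Adipocytes held 5421 and 2491 CPM, and endothelial cells 1755 and 1062. Lpl was thus 0.324 and 0.426 times as high in endothelial cells, and the log2 fold change was -1.78 ± 0.24 (SE, adjusted p = 1.54e-08). It was lower there under each of the 10 alternatives that could be tested, and all of these passed. Their log2 fold changes ranged from -6.80 after subtraction of the adipocyte profile to -0.93 without integration. Subtraction takes adipocyte RNA out of the endothelial sums by design, and the fit without the subclusters leaves out nuclei chosen for adipocyte markers. Neither is an independent check of a gene that is higher in adipocytes. The remaining types ranged from 584 to 2328 CPM, and no difference between neighbours below adipocytes passed (adjusted p from 0.0593 to 0.975). Farther apart in order, smooth muscle cells were below mesothelial cells, immune cells and FAPs (adjusted p = 0.00454, 0.00422 and 0.00624). Endothelial Lpl, at 32.4% and 42.6% of the adipocyte level, lay inside the range of the 13 adipocyte genes in both libraries. With thinning, 63.1% and 39.9% of endothelial nuclei and 97.2% and 83.0% of adipocytes held an Lpl UMI.

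Angptl4 (chr17:33992724-34000804, minus strand), the inhibitor of the lipase, was at 68.6 and 36.1 CPM in adipocytes and 23.7 and 27.2 in endothelial cells, where replicate 1 gave only 5 UMIs. The groups did not overlap, but the difference was unlike between libraries, with endothelial levels 0.346 and 0.755 times those of adipocytes. The log2 fold change was -1.14 ± 0.40 (SE, adjusted p = 0.0202), and the call was lost without the library block (adjusted p = 0.102). Within replicate 1 alone the log2 ratio was -1.92 and within replicate 2 alone it was -0.78. Against the mean of the other types Angptl4 was higher in adipocytes (log2 fold change 1.49, adjusted p = 3.16e-07) and lower in immune cells (-1.49, adjusted p = 0.00116). No difference between neighbours below adipocytes passed (adjusted p from 0.126 to 0.663), and smooth muscle cells ranged from 0 to 44.9 between the libraries.

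Cd36 (chr5:17986432-18094067, minus strand), the fatty acid translocase, was highest in endothelial cells in both libraries. Its level there was 2997 and 2514 CPM, against 1811 and 1263 in adipocytes and 1528 and 1089 in immune cells. Endothelial cells and adipocytes did not overlap, at ratios of 1.65 and 1.99. After the scaling of edgeR, whose factors were 1.05 and 1.04 for endothelial cells and 0.803 and 0.799 for adipocytes, the log2 fold change was 0.49 ± 0.23 (SE) and did not pass (adjusted p = 0.0868). It stayed above 0 under all 10 tested alternatives, from 0.04 to 0.69, and passed with DESeq2 (adjusted p = 0.0292).

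Below these, Cd36 was higher in adipocytes than in immune cells (adjusted p = 0.0482) and higher in immune than in smooth muscle cells (adjusted p = 0.0026). Neither pair was tested under the alternatives. Macrophage-like nuclei, a part of the immune cells, were above adipocytes, as given below. Smooth muscle cells, mesothelial cells and FAPs, with means of 761 ± 167, 575 ± 152 and 451 ± 107 CPM (SD, n = 2), gave no difference between neighbours that passed (adjusted p = 0.684 and 0.445). Of the 2015 FAP UMIs of Cd36 in replicate 2, 1571 lay in the FAP subcluster with adipocyte and endothelial markers. Against the mean of the other types, Cd36 was higher in endothelial cells by 1.65 ± 0.16 and in adipocytes by 1.06 ± 0.16 on the log2 scale (SE, adjusted p = 1.7e-12 and 2.32e-07). At 165% and 199% of the adipocyte level, endothelial Cd36 lay above all 13 adipocyte genes in both libraries. Immune Cd36, at 84.3% and 86.2%, did so as well, where the highest of the 13 stood at 41.5% and 54.7%. With thinning, a Cd36 UMI was found in 80.0% and 77.8% of endothelial nuclei and in 78.7% and 64.9% of adipocytes.

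Vldlr (chr19:27193862-27231631, plus strand) followed neither side of the capillary wall, since its highest level was in FAPs, the progenitors that can form adipocytes. FAPs held 270 and 157 CPM, adipocytes 51.0 and 54.3, and endothelial cells 33.2 and 26.1. The FAP level did not overlap with any other type, and the log2 fold change against the mean of the others was 2.31 ± 0.19 (SE, adjusted p = 4.8e-15). FAPs stood at 529% and 289% of the adipocyte level, above all 13 adipocyte genes in both libraries. With thinning, 22.2% and 12.6% of FAP nuclei and 4.99% and 5.24% of adipocytes held a Vldlr UMI.

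Adipocytes were higher in Vldlr than endothelial cells, and the log2 fold change was -1.23 ± 0.35 (SE, adjusted p = 0.00432), but the call was lost without the library block (adjusted p = 0.0621). Endothelial and immune cells had the lowest means, and no difference between neighbours below FAPs passed (adjusted p from 0.1 to 0.993). Farther apart in order, adipocytes and mesothelial cells were above immune cells (adjusted p = 9.47e-05 and 0.021). The endothelial value of replicate 1 rested on 7 UMIs.

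Slc27a1 (chr8:72021095-72041866, plus strand) encodes FATP1, a transport protein with acyl-CoA synthetase activity. It was at 1124 and 1773 CPM in adipocytes and at 270 and 618 in endothelial cells, lower in replicate 1 than in replicate 2 in both. The groups did not overlap, and the log2 fold change was -2.05 ± 0.25 (SE, adjusted p = 5.56e-10). Over the alternatives it ranged from -7.56 after subtraction of the adipocyte profile to -1.23 without integration. Slc27a4 (chr2:29692598-29710004, plus strand), which encodes the related FATP4, was present at low levels. It stood at 32.6 and 24.2 CPM in adipocytes and, from 7 and 18 UMIs, at 33.2 and 21.3 in endothelial cells. In smooth muscle cells it rested on 2 and 6 UMIs, and all types together ranged from 20.7 to 33.2. No difference between neighbours in its order passed (adjusted p from 0.373 to 0.921), and the log2 fold change between endothelial cells and adipocytes was -0.48 ± 0.39 (SE, adjusted p = 0.356). Over the 10 alternatives it ranged from -1.06 to -0.21 (adjusted p from 0.0764 to 0.721).

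Among the intracellular proteins, Fabp4 (chr3:10268785-10273737, minus strand), the adipocyte fatty acid binding protein that capillary endothelium also makes, had its highest level in endothelial cells in both libraries. Endothelial cells held 6990 and 2745 CPM and adipocytes 4556 and 2097. Endothelial cells were higher in each library, at ratios of 1.53 and 1.31, but across the libraries the groups overlapped. The log2 fold change was 0.15 ± 0.25 (SE, adjusted p = 0.68), with a sign that turned under 3 alternatives. Both were above the next type, mesothelial cells (adjusted p = 0.00027 for endothelial cells and 0.000358 for adipocytes). At 153% and 131% of the adipocyte level, endothelial Fabp4 was above all 13 adipocyte genes in both libraries.

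Fabp5 (chr3:10077602-10081674, plus strand), the epidermal type of binding protein, was present at low levels, at 49.2 and 40.3 CPM in adipocytes and 37.9 and 32.0 in endothelial cells. The groups did not overlap, yet the difference did not pass (log2 fold change -0.74 ± 0.39, SE, adjusted p = 0.138), and the endothelial value of replicate 1 came from 8 UMIs. Without a filter on low counts it passed (log2 fold change -1.14, adjusted p = 0.027), and over 10 alternatives the adjusted p ranged from 0.027 to 0.472. The other types ranged from 3.46 to 29.3, and no difference between neighbours in order passed (adjusted p from 0.138 to 0.642). Endothelial cells were above FAPs and immune cells, farther apart in order (adjusted p = 0.041 and 0.00845). Against the mean of the other types Fabp5 was higher in adipocytes by 1.98 ± 0.27 on the log2 scale (SE, adjusted p = 6.26e-09).

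Acsl1 (chr8:46924063-46990145, plus strand), the long-chain acyl-CoA synthetase of the adipocyte, had the lowest endothelial share among the 10 genes. Adipocytes held 1742 and 2198 CPM and endothelial cells 384 and 622, which are 22.1% and 28.3% of the adipocyte level. Adipocytes did not overlap with any other type, since the rest ranged from 252 to 622. The log2 fold change between endothelial cells and adipocytes was -2.34 ± 0.24 (SE, adjusted p = 3.93e-12), and no difference between neighbours below adipocytes passed (adjusted p from 0.47 to 0.896). Over the alternatives that fold change ranged from -16.3 after subtraction of the adipocyte profile to -1.49 without integration. Farther apart in order, mesothelial cells were above smooth muscle cells (adjusted p = 0.025).

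**Figure D2:**
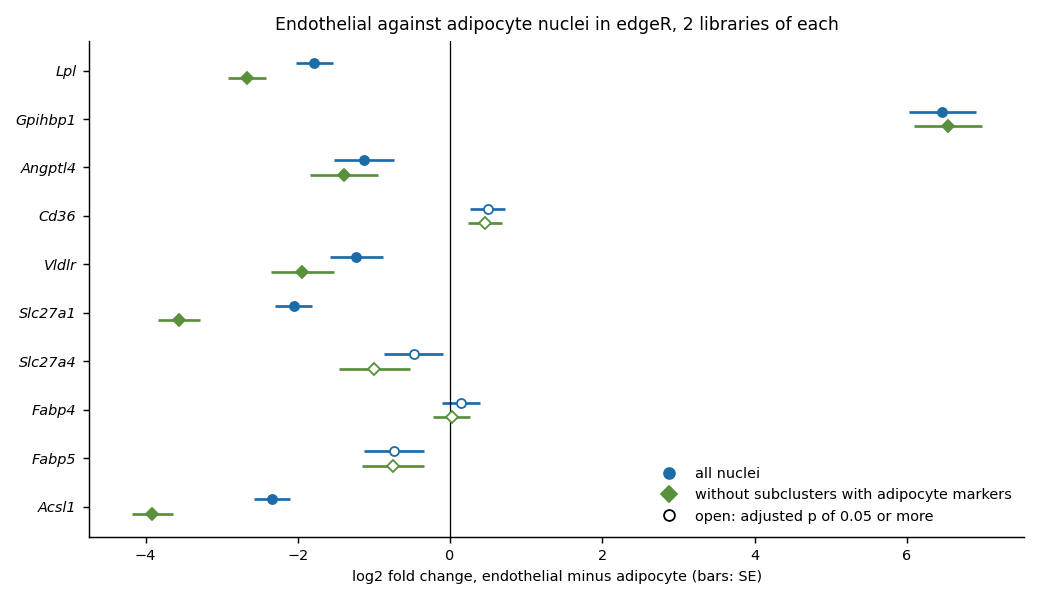
Log2 fold change of each gene between endothelial cells and adipocytes in edgeR, with bars for the SE. Circles stand for all nuclei, diamonds for the fit without subclusters that hold adipocyte markers, and open symbols for an adjusted p of 0.05 or more. Gpihbp1 lies at 6.47 and 6.54, and Acsl1, Slc27a1 and Lpl move further below 0 in the second fit. That fit leaves out nuclei chosen for adipocyte markers.

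Against the mean of the 5 other types, 7 of 10 members were higher in adipocytes (Acsl1, Fabp5, Slc27a1, Lpl, Angptl4, Cd36 and Fabp4), where 26.6% of all genes were, and Gpihbp1 was lower (log2 fold change -1.95, adjusted p = 0.014), as 32.3% of genes were. That mean includes the endothelial peak of Gpihbp1, and against immune, mesothelial and smooth muscle cells singly its difference from adipocytes did not pass (adjusted p = 0.534, 0.696 and 0.913). In endothelial cells 3 of 10 were higher (Gpihbp1, Cd36 and Fabp4), where 8.22% of all genes were, and Vldlr was lower, as 3.71% of genes were. Without integration of the libraries, 8 of 10 were higher in endothelial cells, where 1298 of all 16141 genes tested were. In FAPs Vldlr was higher, as 9.55% of genes were, and 3 of 10 were lower, as 4.85% of genes were: Cd36 (log2 fold change -1.36), Acsl1 (-0.69) and Slc27a1 (-0.59). Cd36 was lower in mesothelial cells (-1.01), as 6.25% of genes were. In smooth muscle cells 5 of 10 were lower (Lpl, Acsl1, Fabp4, Cd36 and Slc27a1), as 4.26% of genes were. In immune cells 0 of 10 were higher in edgeR, where 15% of all genes were, and Angptl4, Fabp4 and Vldlr were lower, as 8.99% of genes were. Without the library block, Fabp4 lost its calls in adipocytes (adjusted p = 0.0644), endothelial cells (0.109) and immune cells (0.466), Vldlr lost that in endothelial cells (0.139) and Angptl4 that in immune cells (0.0513). Acsl1 and Slc27a1 then lost their calls in FAPs (adjusted p = 0.352 and 0.533), Cd36 lost that in mesothelial cells (0.0648), and the 5 calls in smooth muscle cells were lost (from 0.103 to 0.41). With DESeq2, Slc27a1 lost its calls in FAPs (0.0784) and smooth muscle cells (0.179), and Vldlr lost that in endothelial cells (0.0633). Of the immune values, Cd36 had an unadjusted p under 0.05 (log2 fold change 0.43 ± 0.17, SE, adjusted p = 0.0686), and DESeq2 also called 0 (adjusted p = 0.1). Immune Cd36 was called higher without integration, with the members kept as features, after subtraction and without the subclusters with adipocyte markers.

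Over the 10 genes, 9 of 50 pairs of neighbours in the order of levels passed the test, and pairs farther apart in the order are not in this count. The share of all genes called in the same direction was 23.5% for adipocytes over mesothelial cells, 20.7% for adipocytes over immune cells and 24.7% for FAPs over adipocytes. It was 6.91% for FAPs over mesothelial cells. It was 7.22% for endothelial cells over FAPs, 8.13% for endothelial over mesothelial cells and 10% for immune over smooth muscle cells.

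Adipocyte markers gathered in subclusters of other types. A subcluster of 55 endothelial nuclei (10 and 45 by library) held 8 of 8 adipocyte markers at a median depth of 4535 UMIs, and like subclusters of 294 FAP nuclei and 127 immune nuclei held 8 of 8 as well. The FAP subcluster also held 5 of 10 endothelial markers. Without these 3 subclusters, the 13 adipocyte genes stood in endothelial nuclei at a median of 21.8% and 18.0% of the adipocyte level. Gpihbp1 was then at 247 and 227 CPM in endothelial cells, Cd36 at 3138 and 2906 and Fabp4 at 7475 and 2782. Lpl was at 1211 and 585, Acsl1 at 159 and 219 and Slc27a1 at 112 and 230, each below the value over all endothelial nuclei in both libraries. In the largest FAP subcluster (1325 nuclei), Cd36 was at 202 and 171 CPM, against 375 and 527 over all FAPs. Fabp4 was at 1190 and 504 against 1916 and 2004, and Lpl at 1072 and 619 against 1704 and 1372. Acsl1 was at 125 and 143 against 252 and 497, while Vldlr was higher there, at 293 and 194 against 270 and 157. The nuclei left out were chosen for adipocyte markers, so lower levels of genes high in adipocytes follow from that choice in both types.

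The fit without the subclusters with adipocyte markers was added after these had been seen. It leaves out nuclei chosen for adipocyte markers, and so is no independent check of genes that are higher in adipocytes. In it, the log2 fold change of endothelial cells against adipocytes was -2.67 ± 0.25 (SE) for Lpl, -3.91 ± 0.27 for Acsl1 and -3.56 ± 0.27 for Slc27a1. For Cd36 it was 0.46 ± 0.23 (SE, adjusted p = 0.0974). The same 6 members were called in the same directions, where 19.7% of all genes were higher and 22.2% lower. Immune Cd36 was higher than the mean of the other types here (log2 fold change 0.51, adjusted p = 0.0185).

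In 28 endothelial nuclei of replicate 2 no UMI of the 13 adipocyte genes was found, and replicate 1 had 0 such nuclei. These nuclei had a median depth of 1280.5 UMIs and held Cd36 at 3224 CPM (122 UMIs), Fabp4 at 2061 (78 UMIs) and Gpihbp1 at 211 (8 UMIs). Over all endothelial nuclei of that library Cd36 was at 2514, Fabp4 at 2745 and Gpihbp1 at 178, so that in the 28 nuclei Cd36 was higher, Fabp4 lower and Gpihbp1, from 8 UMIs, close to it. Lpl was at 344 (13 UMIs), Slc27a1 at 185 (7 UMIs) and Acsl1 at 132 (5 UMIs), each below the level over all endothelial nuclei. With 1 library, this difference has no replicate check. The nuclei were chosen for a lack of adipocyte RNA, so lower levels of genes high in adipocytes follow from that choice.

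**Figure D3:**
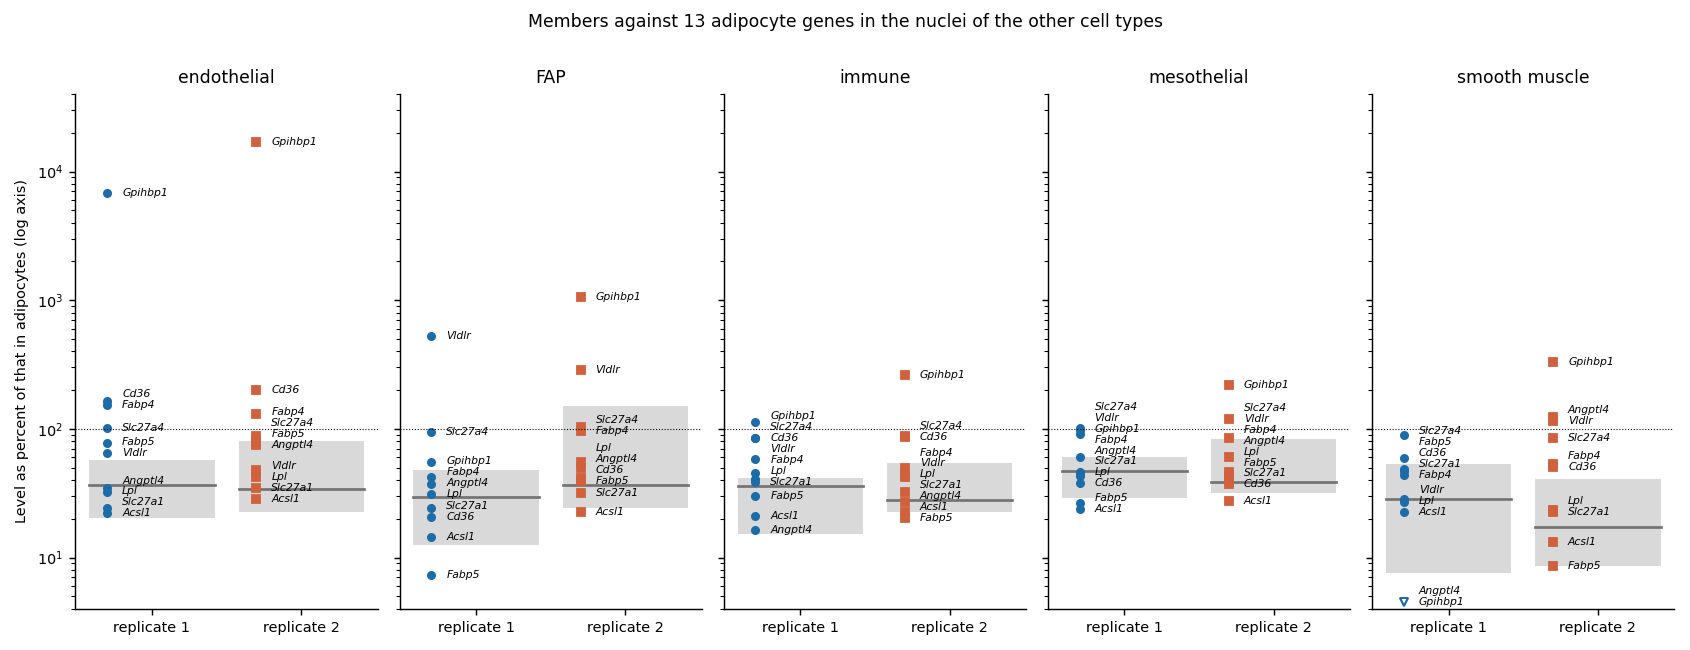
Level of each gene as percent of its level in adipocytes of the same library, on a log axis, in the 5 other cell types. Grey bands span the 13 adipocyte genes with a line at their median, the dotted line marks 100%, and open triangles stand for 0 UMIs. In endothelial cells Gpihbp1, Cd36, Fabp4 and Slc27a4 lie above the band in both libraries, and Lpl, Slc27a1, Acsl1 and Angptl4 lie within it. Slc27a4 and Angptl4 lose these places without the subcluster with adipocyte markers, which is part of the values plotted.

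Read against the range of the 13 adipocyte genes, endothelial cells had 4 members above it in both libraries (Cd36, Fabp4, Gpihbp1 and Slc27a4) and 4 inside it (Lpl, Slc27a1, Acsl1 and Angptl4). Without the endothelial subcluster with adipocyte markers, Fabp5 took the place of Slc27a4 among the 4 above it, and Vldlr that of Angptl4 among the 4 inside it. In FAPs, Vldlr and Gpihbp1 were above the range. Without the FAP subcluster with adipocyte and endothelial markers, Vldlr and Slc27a4 were, and Gpihbp1 was at 0 CPM in replicate 1 and 3.07 in replicate 2. In immune cells Cd36, Gpihbp1 and Slc27a4 were above it, and in mesothelial cells Gpihbp1, Slc27a4 and Vldlr. Acsl1 was below the range in mesothelial cells in both libraries. Slc27a4, at 85.6% to 120% of its adipocyte level in every other type, was the only member above the range in smooth muscle cells in both libraries. Gpihbp1 has a low level in adipocytes, so that a few UMIs make a high percent.

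**Figure D4:**
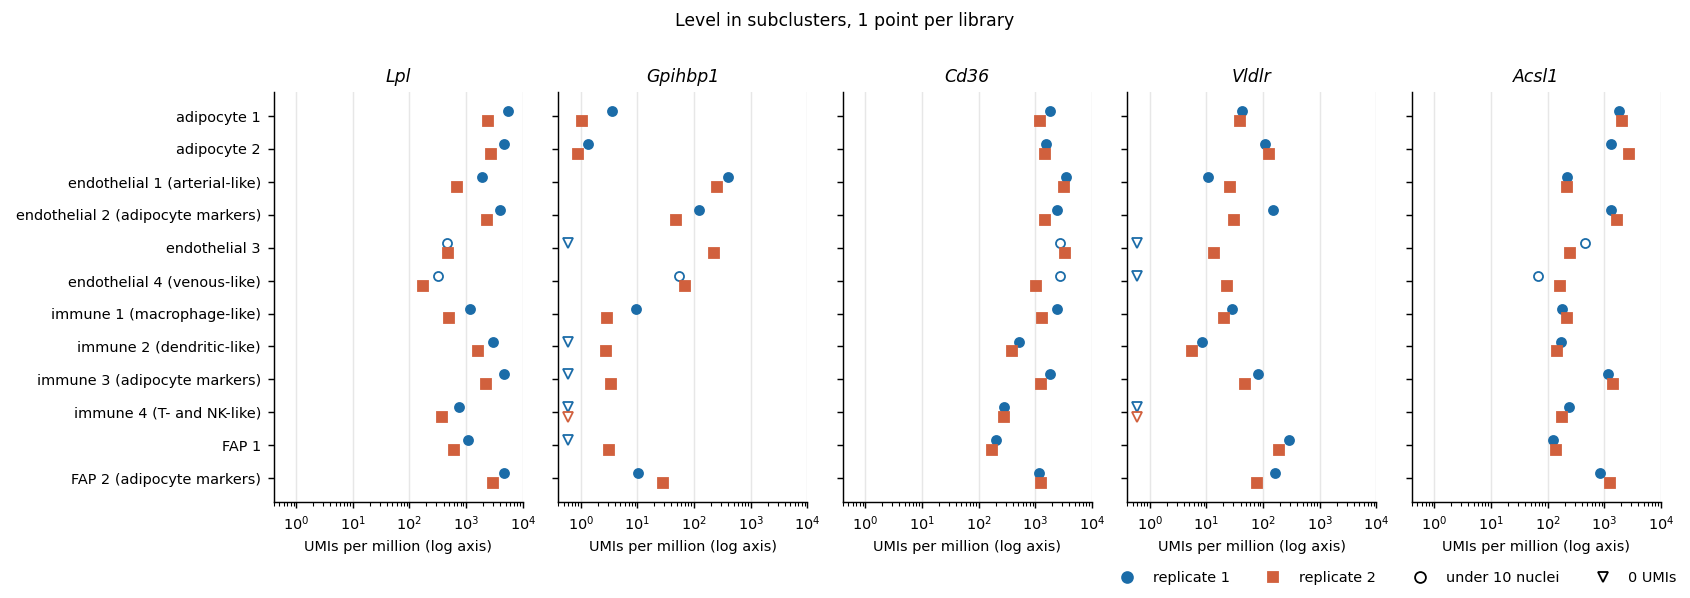
Levels of Lpl, Gpihbp1, Cd36, Vldlr and Acsl1 in subclusters, in CPM on a log axis, with 1 point per library, open points for under 10 nuclei and triangles for 0 UMIs. Subclusters with adipocyte markers in endothelial cells, immune cells and FAPs have Lpl at 74.3% to 120% and Acsl1 at 48.8% to 77.0% of the adipocyte level, and the dendritic-like immune subcluster has more Lpl and less Cd36 than the macrophage-like one.

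Within endothelial cells, the largest subcluster (300 nuclei) was arterial-like by 4 of 4 arterial markers, with 2 of 3 capillary markers besides. It held Gpihbp1 at 405 and 257 CPM and Cd36 at 3454 and 3182. No subcluster was named capillary, so the name does not place these genes in arteries rather than capillaries. The venous-like subcluster (8 and 39 nuclei, with 4 of 4 venous and also 3 of 10 smooth muscle markers) held less of both in each library, with Gpihbp1 at 53.9 and 69.9, from 4 and 6 UMIs, and Cd36 at 2749 and 1048. Its nuclei had median depths of 8764.5 and 1627 UMIs, against 1703 and 1555 in the arterial-like ones. Its Lpl level of 323 and 175 was also below the 1930 and 681 of the arterial-like nuclei. The 13 adipocyte genes had a median of 5.85% and 12.1% of the adipocyte level in the venous-like nuclei and 32.7% and 17.3% in the arterial-like ones. These are descriptions without a test, since the subclusters were drawn from the same counts.

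In immune cells, the macrophage-like subcluster (804 nuclei) and the dendritic-like one (194 nuclei) differed in opposite ways in Cd36 and Lpl. Cd36 was at 2396 and 1347 CPM in macrophage-like nuclei and at 515 and 392 in dendritic-like nuclei. Lpl was at 1162 and 492 in macrophage-like nuclei and at 2940 and 1602 in dendritic-like nuclei. The order was the same in both libraries for each gene. Macrophage-like Cd36 was also above the 1811 and 1263 CPM of all adipocytes, a difference that was not tested. The 13 adipocyte genes had a median of 24.7% and 14.5% of the adipocyte level in macrophage-like nuclei and 17.5% and 11.3% in dendritic-like nuclei, where Lpl was 54.2% and 64.3% of the adipocyte level. In nuclei like T and NK cells, Cd36 was at 285 and 287 and Lpl at 759 and 381.

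Adipocytes split into a subcluster of 6380 nuclei and one of 898 nuclei that was led by Ucp1 and Cidea, genes of thermogenic fat. Vldlr was higher in the smaller one in both libraries, at 109 and 125 CPM against 43.0 and 39.8. Angptl4 was higher there as well, at 84.5 and 58.9 against 66.4 and 31.4, and so was Fabp4, at 5536 and 2628 against 4419 and 1988. Slc27a1 was lower there, at 905 and 1579 against 1154 and 1813, while Acsl1, Cd36 and Lpl changed order between the libraries. The smaller subcluster was deeper, with a median of 6924.5 UMIs per nucleus against 4386.

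Of 32 further genes of the route, 26 were tested, and 7 were higher in endothelial cells and 9 higher in adipocytes, where 19.5% and 15.7% of all genes were. Their median log2 fold change was -0.17. In the group of endothelial transport 5 of 7 were higher in endothelial cells, against the same 19.5% of all genes: Meox2 and Tcf15, transcription factors that together drive fatty acid transport genes in endothelium, and Cavin1, Cavin2 and Cav2, of the caveolar coat. Meox2 was at 223 and 186 CPM against 1.97 and 0.952 in adipocytes (log2 fold change 6.98 ± 0.44, SE, adjusted p = 2.94e-20). Tcf15 was at 204 and 93.6 against 1.48 and 0.675 (6.70 ± 0.51, adjusted p = 1.27e-16). The calls of Meox2 and Tcf15 held without the block as well, while that of Cav2 (log2 fold change 0.74, adjusted p = 0.016) was lost (adjusted p = 0.275).

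Of the 5 genes that mature or retain the lipase, Hspg2, the heparan sulfate proteoglycan perlecan, was higher in endothelial cells (375 and 334 against 98.5 and 65.4, log2 fold change 1.81). Sel1l, needed for LPL to leave the endoplasmic reticulum, and Sort1, the sorting receptor sortilin, were higher in adipocytes (log2 fold changes -0.69 and -2.13). Among 4 genes of lipase control, Angptl8 and the protease gene Pcsk6 were higher in adipocytes (-1.95 and -1.45). Angptl8 stood at 833 and 346 CPM in adipocytes and at 256 and 122 in endothelial cells.

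Lrp1, a receptor that takes up lipoprotein remnants, was higher in adipocytes (log2 fold change -1.35), as were Acsl3 and the acyl-CoA binding protein gene Dbi (-1.72 and -1.15) among 4 tested genes of acyl-CoA synthesis and binding. Pparg, the nuclear receptor that governs adipocyte genes, was also higher in adipocytes, at 3939 and 4574 CPM against 1215 and 2095 (log2 fold change -1.76). Got2, a mitochondrial aminotransferase also described as a fatty acid binding protein of the cell surface, was higher in endothelial cells (75.9 and 21.3 against 6.07 and 5.89, log2 fold change 2.28). Neither of the 2 palmitoylation genes Zdhhc4 and Zdhhc5 passed, and Slc27a2, Slc27a3, Slc27a6, Acsl6, Fabp3 and Fabp7 did not pass the filter on low counts. Without the library block, Sel1l, Pcsk6, Lrp1 and Dbi lost the call (adjusted p from 0.0515 to 0.149).

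Over the 12 sums of 6 cell types and 2 libraries, the genes most like each member among 10363 genes were ranked by Pearson's r of log2 levels. The 3 most like Gpihbp1 were Cyp1a1, Mmrn2 and Sema3g (r from 0.968 to 0.978), and those most like Lpl were Srebf1, Thrsp and Scd1 (r from 0.976 to 0.985). Acsl1 was nearest to Acaca, Acss2 and Gbe1 (r from 0.989 to 0.996) and Slc27a1 to Hibch, Clybl and 4933406I18Rik (r from 0.969 to 0.972). Cd36 had looser neighbours, Itga6, Irak2 and Impdh1 (r from 0.838 to 0.906), and Fabp4 was nearest to C130074G19Rik, Cav2 and Aplp2 (r from 0.852 to 0.937). Vldlr was nearest to Vegfd, Dpep1 and Dact1 (r from 0.916 to 0.971). For the low genes, the list was Mterf3, Slc25a32 and Plaat3 for Fabp5, Tmem43, Ndufb9 and Uqcr10 for Slc27a4, and Pcbp4, Lgals4 and Eny2 for Angptl4 (r from 0.906 to 0.967 in all). The points share mice, depth and adipocyte RNA, so that these values only describe likeness.

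In the GENCODE annotation, 8 of the 10 genes overlap a gene on the opposite strand, Gpihbp1 and Angptl4 being the exceptions. Slc27a1 overlaps the protein-coding gene Nxnl1, and the other 7 overlap non-coding genes or genes of unknown type. Whether strand was used in counting is not given in the sources used here, so reads of such pairs may not be told apart.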

How the data were processed

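Single-nucleus RNA-seq of visceral fat from 2 young mice was analysed. The authors aligned reads to GRCm39 with CeleScope and deposited whole UMI counts of 56980 genes per called barcode, without normalization. A deposited barcode list also gives UMI counts of uncalled barcodes. The limits of the study were applied (genes above 500, UMIs above 1000, mitochondrial share below 15%), and left more nuclei in both libraries than its methods give. The 10 genes and all gene lists were chosen with earlier results of these data known.

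Nuclei were clustered on 1000 variable genes without the members and the further genes of the route (30 principal components, Harmony in numpy 2.4.6, 20 neighbours, Leiden with leidenalg 0.10.2 at resolution 0.1), and subclustered with 16 components. A cluster took the name of a type with at least 3 markers, and a share of at least 0.5 of its list, that were detected in at least 5% of the cluster and exceeded the other nuclei by 1 on the log2 scale, if 1 or more was among its top 30 genes and no other type reached 0.75 of that share. This rule was set after the clusters had been seen. The genes named are the members, the genes of the route that passed (1 is counted but not reported here), the markers and the adipocyte list, and the 3 genes most like each member (r of log2(CPM + 1), genes at 20 or more in a type).

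UMIs were summed per cell type and library, with at least 20 nuclei each, and tested with edgeR 4.0.16 in R 4.3.3 (TMM, filterByExpr, quasi-likelihood F test, Benjamini-Hochberg adjustment over all genes, calls under 0.05). The library was a block, because all cell types of a library come from 1 mouse. Over 15 pairs of types and 1244 genes, the gaps between libraries had correlations from 0.486 to 0.864. Fold changes include the TMM factors. Each SE of an edgeR fold change was derived from the test, as the absolute log2 fold change divided by the square root of F. Intervals are exact Clopper-Pearson 95% intervals and cover counting error only. In simulated counts for endothelial cells against adipocytes with 13333 genes tested, 70.2% of 4-fold and 15.7% of 2-fold changes were recovered, and 2.44% of calls were false. Only 100 genes per fold size differed between types in the simulation, the spread was fixed, and no adipocyte RNA was shared. These rates therefore need not hold in the data. Scrublet in scanpy 1.11.5 marked 1 nucleus per library by its own threshold and so did not separate doublets, and no nuclei were removed as doublets. Positions are from GENCODE vM39, promoter sequences from RefSeq. The tested alternatives used DESeq2 1.42.0, no low count filter, no block, a mitochondrial limit of 5%, the highest 6% of Scrublet scores removed, no integration, resolution 0.3, members kept as features and a subtracted adipocyte profile. The fit without the subclusters with adipocyte markers was a further tested alternative, added later. Single libraries gave values without a test.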

Additional observations from a re-analysis of the deposited data

Results flagged for a closer look

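Called barcodes with at most 1000 UMIs entered no comparison and numbered 2549 and 4871. All 10 members were above the limit that a count of 0 allows (3 UMIs) in both libraries, with mean levels of 1409 CPM for Lpl, 15.9 for Gpihbp1, 21.9 for Angptl4, 750 for Cd36, 56.0 for Vldlr, 468 for Slc27a1, 22.5 for Slc27a4, 2041 for Fabp4, 14.04 for Fabp5 and 516 for Acsl1. The 13 adipocyte genes stood there at a median of 44.8% and 27.9% of the adipocyte level.

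The 23 lymphatic endothelial-like nuclei of replicate 2 also entered no comparison, and 7 members were above that limit in them. Their levels were 169 CPM for Cd36, 660 for Fabp4, 291 for Lpl, 76.7 for Gpihbp1, 215 for Slc27a1, 568 for Acsl1 and 61.4 for Vldlr. After thinning, a Cd36 UMI was found in 17.4% of them (exact 95% interval 4.95 to 38.8%), against 77.8% of the endothelial nuclei of that library. Replicate 1 had 0 such nuclei, so that these values have no replicate check.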

How the results depend on the processing

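Across the tested alternatives, the 10 members kept the direction of the endothelial and adipocyte comparison except Fabp4, which turned to -0.25 without a filter on low counts, -0.053 at a mitochondrial limit of 5% and -0.084 after the adipocyte profile was subtracted. Gpihbp1, Lpl, Slc27a1 and Acsl1 kept their calls in all 10. For Lpl, Slc27a1 and Acsl1, subtraction and removal of the subclusters are no independent checks, since both take adipocyte RNA out of endothelial cells. After subtraction the log2 fold change of Vldlr moved from -1.23 to -2.70 and that of Angptl4 from -1.14 to -2.55. Endothelial cells had 2 members higher with DESeq2 (Gpihbp1 and Cd36), and adipocytes had 3 higher with DESeq2, 3 without the library block and 3 without integration, each time losing Vldlr and Angptl4. Without the filter 6 were higher, Fabp5 being gained. Without integration, 8 members were higher in endothelial cells than in the mean of the others, in an endothelial cluster of 100 and 689 nuclei. There 1298 of 16141 genes were higher. In immune cells 1 member, Cd36, was higher without integration, with the members kept as features (1), after subtraction (1) and without the subclusters with adipocyte markers (1). Of all genes, 2132 of 16141, 1987 of 13872, 1469 of 13287 and 2207 of 14000 were higher there, in that order. Of the further genes, 5 were higher in adipocytes without the block. Members higher in adipocytes than in the mean of the others, 7 as reported, numbered 6 without the block and 8 at a mitochondrial limit of 5% and with the members kept as features. They numbered 9 without the filter, without high Scrublet scores, after subtraction and without the subclusters. Of all genes, 3810 of 14331 were higher there as reported and 2380 of 14331 without the block. At the 5% limit, whose mean left out mesothelial and smooth muscle cells, 3119 of 15520 were. With the members kept as features it was 3905 of 13872, and without the filter 6100 of 43933. Without high Scrublet scores it was 4473 of 13932, after subtraction 3940 of 13287 and without the subclusters 4853 of 14000. In endothelial cells against the mean of the others, members higher were 3 as reported and 2 without the block. They were 4 without high Scrublet scores, after subtraction and without the subclusters. Of all genes, 813 of 14331 were higher there without the block and 1175 of 13932 without high scores. After subtraction 884 of 13287 were, and without the subclusters 1362 of 14000. Without the block, the further genes higher in endothelial cells than in adipocytes were 6 rather than 7. All tested genes called between endothelial cells and adipocytes were 2794 higher and 2244 lower, against 2984 and 1418 with DESeq2, 1959 and 3485 without the filter, and 1756 and 1028 without the block. They were 2058 higher and 1867 lower without integration. The median of all genes, 0.06, moved to 0.24 with DESeq2, -0.43 without the filter and -0.19 after subtraction. The cause of these changes was not tested.

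The ratio of summed levels put the 13 adipocyte genes at 40.9% of the adipocyte level in endothelial cells and 41.0% in FAPs, against medians of 35.4% and 33.2%. Unthinned shares of nuclei with a UMI were 0.834% for Gpihbp1 in adipocytes, 89.6% and 93.8% for Cd36 in endothelial cells and adipocytes, and 26.3% and 16.6% for Vldlr in FAPs and adipocytes. The endothelial nuclei free of adipocyte list UMIs could not be tested, having 0 nuclei in replicate 1, and a single library gives values without a test. At a limit of 5%, mesothelial and smooth muscle cells had under 20 nuclei in replicate 1 and were not tested. In that clustering 1628 nuclei stayed unnamed, as did 1536 without integration and 3153 and 744 in 2 clusters at resolution 0.3. Mesothelial nuclei, 499 and 3663 by library as reported, were 216 and 1951 without integration and 252 and 2144 at resolution 0.3. The 65 endothelial nuclei of replicate 1 limit the low genes.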
